A study of Mus musculus with 8 samples.

Results

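Adipogenic regulators and lipid storage genes were examined in mouse embryonic fibroblasts lacking Cbx2, a chromodomain subunit of polycomb repressive complex 1, and in wild-type fibroblasts. The set holds 10 genes taken by symbol from the 17441 genes of the authors' deposited table: the nuclear receptor gene Pparg, the C/EBP factor genes Cebpa, Cebpb and Cebpd, the lipase gene Lpl, the fatty acid carrier gene Fabp4, the hormone gene Adipoq and the perilipin genes Plin1, Plin2 and Plin4. All 10 symbols were found. The rule takes genes by symbol only, but the members were chosen with earlier results of these data known. Primary fibroblasts came from embryonic day 18 embryos that were either Cbx2-/- knockouts, whose kind of allele the labels do not give, or wild-type littermates, and both were grown to passage 2 in high-glucose medium with serum. RNA was sequenced from 2 libraries of Cbx2-/- cells and 2 libraries of wild-type cells, each from 200000 cells and about 4.62 Gb of sequence. No inducer of fat cell formation is named in the labels for either genotype, and they leave unsaid whether separate embryos were used for replicate libraries, so p-values measure the spread between these libraries only, which may be technical. Accessibility libraries of both genotypes are not analysed here.

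Fibroblasts of the embryo include precursors of fat cells. When such a precursor is induced, C/EBPβ and C/EBPδ appear early and activate the genes of PPARγ and C/EBPα, which then maintain each other and switch on the genes of the mature fat cell. Among these are lipoprotein lipase, which frees fatty acids from circulating triglycerides, FABP4, which carries them in the cytosol, the perilipins, which coat lipid droplets, and the secreted hormone adiponectin. Lpl, Fabp4, Pparg and Plin2 are also known from macrophages, Fabp4 from capillary endothelium, and Plin2 from most cells that store lipid.

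The authors' deposited table gives 1 value per genotype, in reads after division by a size factor per library, and these values sum to 18910077 in Cbx2-/- cells and 19428299 in wild-type cells. A gene is said here to have risen or fallen where the adjusted p of the authors' DESeq2 comparison was under 0.05, the direction being that of its log2 fold change. Because the table has no value per library, the standard error (SE) and 95% interval of each log2 fold change were derived from the deposited p, on the same scale as that fold change. The deposited genotype values have exactly the ratio of the deposited fold change, and in genes with few reads this ratio is nearer to 1 than that of the recovered reads given below for some genes. The targeted transcript fell, with a Cbx2 value of 29.0 in Cbx2-/- cells against 346.8 in wild-type cells in the authors' deposited table (log2 fold change -3.58, SE 0.25, DESeq2 adjusted p 2.55e-44). The defining genes of fibroblasts were abundant in both genotypes, all 11 of 11 being present, with Col3a1, a fibrillar collagen, at 54815 in Cbx2-/- cells and 71346 in wild-type cells in the authors' deposited table.

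Of the 10 genes 3 changed. Lpl and Pparg fell and Plin2 rose, while the genes of all 3 C/EBP factors, Fabp4, Adipoq, Plin1 and Plin4 did not pass the threshold. In the whole series 7.78% of genes were called, 3.48% higher and 4.3% lower in Cbx2-/- cells, and among genes whose mean was at or above the median of 230 the share was 11.8%. The median log2 fold change of the 10 genes was -0.27, beside 0.0036 over all genes, and 7 of the 10 were negative. At an unadjusted DESeq2 p under 0.05 the count was also 3. The genes span a wide range of means, which sets the precision of each comparison.

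**Figure D1:**
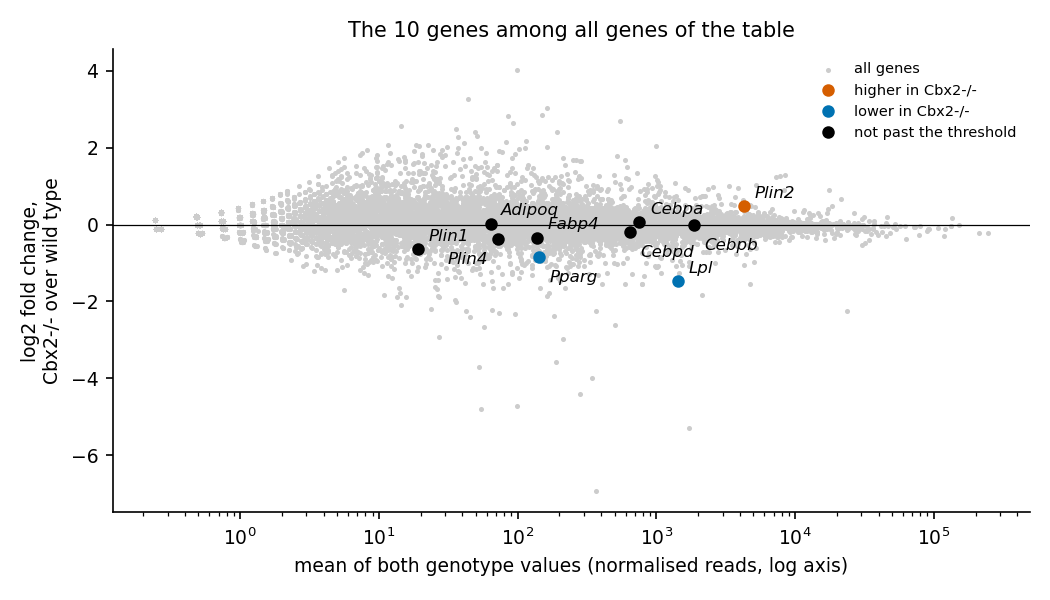
Deposited log2 fold change (Cbx2-/- over wild type) against the mean of both genotype values on a log axis, with all 17441 genes as small grey points and the 10 genes as large points coloured by call. Lpl, at -1.47, and Pparg, at -0.84, lie below 0, Plin2, at 0.48, lies above, and the other genes lie nearer to 0 or at low means.

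**Figure D2:**
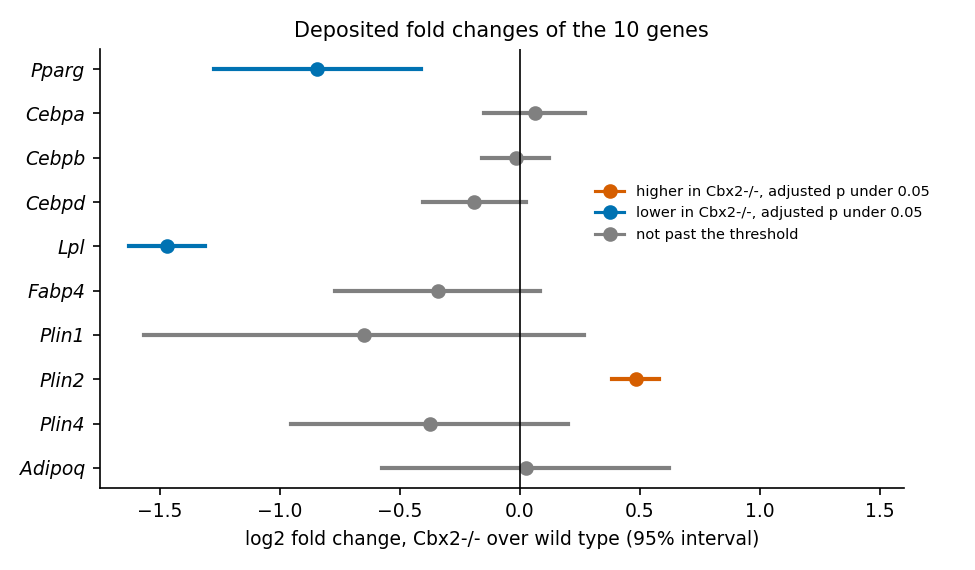
Deposited log2 fold change of each gene (point) with its 95% interval (line), ordered as regulators, uptake and transport, droplet coats and hormone. The intervals of Lpl, Pparg and Plin2 do not reach 0, and those of Plin1, Plin4 and Adipoq are wide.

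Pparg (gene 19016, chromosome 6, 115360879 to 115490404 in mm10) encodes the receptor on which fat cell formation depends. Its value was 103 in Cbx2-/- cells against 185 in wild-type cells in the authors' deposited table, so it fell by 44.2% (log2 fold change -0.84, SE 0.22, DESeq2 adjusted p 0.00261). Whole reads per library were recovered for this gene from the decimals of the deposited values. Of 16 sets of reads that matched, 1 lay near the deposited fold change with similar libraries within a genotype, so these reads are less certain than those of Plin1 and Adipoq. The limits used in that choice bound the spread within a genotype and fix that the genotypes do not overlap, so neither is a result for Pparg. The reads were 95 and 114 in Cbx2-/- libraries against 189 and 173 in wild-type libraries, which after scaling gave 101 ± 13.2 against 186 ± 1.93 (SD, n = 2 each). The call was lost with 10% spread added between libraries (normal test, adjusted p 0.0530) and with 20% (0.801), and the change is under 2-fold. These p-values come from a normal test on the derived SE widened by that spread, not from DESeq2.

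Pparg is transcribed from several start sites, and the deposited value sums over them, so it does not show from which start the fall came. The mouse RefSeq table (GRCm38.p6) holds 3 promoter windows for Pparg, each 250 bases before to 50 after a start. They are shown because they carry different motifs. Capitals mark, on either strand, AGGTCA (the unit of PPAR response elements), TTGCNNAA (a C/EBP core), CCAAT and TATAAA, none of which overlap here. The window of the Plin2 start is given with them.
Pparg, first start (chr6:115360894-115361193, plus strand): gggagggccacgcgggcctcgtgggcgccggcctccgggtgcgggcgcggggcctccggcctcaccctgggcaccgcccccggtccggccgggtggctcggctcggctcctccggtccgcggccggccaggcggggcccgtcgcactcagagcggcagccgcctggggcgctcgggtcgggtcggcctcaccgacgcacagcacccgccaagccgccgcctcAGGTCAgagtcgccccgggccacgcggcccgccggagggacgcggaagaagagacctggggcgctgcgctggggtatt
Pparg, second start (chr6:115362099-115362398, plus strand): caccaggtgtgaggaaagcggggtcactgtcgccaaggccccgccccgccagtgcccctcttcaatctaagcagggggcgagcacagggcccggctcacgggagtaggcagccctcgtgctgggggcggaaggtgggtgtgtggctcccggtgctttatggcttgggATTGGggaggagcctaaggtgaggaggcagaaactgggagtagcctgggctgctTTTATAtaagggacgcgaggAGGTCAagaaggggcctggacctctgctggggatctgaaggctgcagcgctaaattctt
Pparg, downstream start (chr6:115421816-115422115, plus strand): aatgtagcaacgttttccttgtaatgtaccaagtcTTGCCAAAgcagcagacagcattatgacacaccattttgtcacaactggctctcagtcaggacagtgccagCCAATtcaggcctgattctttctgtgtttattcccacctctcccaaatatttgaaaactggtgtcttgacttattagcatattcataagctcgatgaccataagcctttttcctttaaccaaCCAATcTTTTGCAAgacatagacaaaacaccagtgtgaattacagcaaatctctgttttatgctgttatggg
Plin2 (chr4:86670010-86670309, minus strand): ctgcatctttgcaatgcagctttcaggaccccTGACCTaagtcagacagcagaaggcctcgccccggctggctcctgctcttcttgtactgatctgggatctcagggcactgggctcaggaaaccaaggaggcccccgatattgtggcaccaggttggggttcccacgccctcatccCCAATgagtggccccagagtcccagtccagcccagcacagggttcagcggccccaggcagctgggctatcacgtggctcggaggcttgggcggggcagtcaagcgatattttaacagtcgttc
The downstream Pparg window had 2 C/EBP cores and 2 CCAAT boxes, and neither upstream Pparg window had a C/EBP core. Each of the upstream windows had 1 AGGTCA, as did the Plin2 window on the opposite strand. Of the 32851 windows of this length in the table, 10.8% held a C/EBP core, 16.3% held AGGTCA, 37.4% a CCAAT box and 13.6% TATAAA. The GC content of the Pparg windows was 80.3%, 62.7% and 40.3% from first to downstream. The first windows therefore differ from the downstream one in base composition as well, and a match in letters is a description of the window only. Windows were found for 7 of the 10 genes. Of those not printed, only the Plin1 window held C/EBP cores, also 2.

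The C/EBP factor genes were not detectably different between genotypes. Cebpb, which acts early in fat cell formation, had values of 1851 in Cbx2-/- cells and 1872 in wild-type cells in the authors' deposited table (log2 fold change -0.017, SE 0.071, DESeq2 adjusted p 0.979). Its 95% interval runs from a change of -10.2% to 8.82%, and at that precision a change of 1.15-fold would have passed. Cebpa, the partner of Pparg in the mature fat cell, had values of 772 in Cbx2-/- cells and 739 in wild-type cells in the authors' deposited table (log2 fold change 0.062, SE 0.11, DESeq2 adjusted p 0.931). Cebpd, the other early factor, had values of 605 in Cbx2-/- cells and 689 in wild-type cells in the authors' deposited table (log2 fold change -0.19, SE 0.11, DESeq2 adjusted p 0.472). Changes of 1.24-fold would have passed for either of these. Cebpd overlaps Spidr on the chromosome, and the table does not state whether strand was used in counting. Listed beside them were Cebpg, Ddit3, a stress-induced inhibitor of the family, and Cebpz, which was included for its symbol only. These also did not pass, with log2 fold changes between 0.012 and 0.090 in the authors' deposited table.

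Lpl (gene 16956, chromosome 8, 68880555 to 68906932 in mm10) showed the greatest change of the set. Its value was 761 in Cbx2-/- cells against 2105 in wild-type cells in the authors' deposited table, which is 2.77-fold lower (log2 fold change -1.47, SE 0.081, 95% interval -1.63 to -1.31, DESeq2 adjusted p 1.15e-70). Of the 3794 genes with a mean between 1000 and 10000, 3 had a lower log2 fold change. Genes that handle the lipase or take up fatty acids were counted beside it, and 3 of 16 (18.8%) fell with none rising. Their median log2 fold change was -0.13. The share called was 7.78% over all genes and 11.8% over the more abundant ones, so a count of 3 in so short a list is a description only. Lmf1, the endoplasmic reticulum factor that folds the lipase, was at 282 in Cbx2-/- cells against 414 in wild-type cells in the authors' deposited table (log2 fold change -0.56, SE 0.14, DESeq2 adjusted p 0.00254). In the authors' deposited table Acsl4, which activates long-chain fatty acids, fell with a log2 fold change of -0.40. Angptl4, a secreted inhibitor of the lipase and a PPAR target, was at 878 in Cbx2-/- cells and 741 in wild-type cells in the authors' deposited table and did not pass (DESeq2 adjusted p 0.120).

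Fabp4 (chromosome 3, 10204342 to 10208616 in mm10) had values of 122 in Cbx2-/- cells and 154 in wild-type cells in the authors' deposited table (log2 fold change -0.34, SE 0.22, DESeq2 adjusted p 0.568). The recovered reads, 1 of 14 matching sets chosen in the same way, were 123 and 127 in Cbx2-/- libraries and 154 and 147 in wild-type libraries, or 121 ± 2.97 and 155 ± 2.99 after scaling (SD, n = 2 each). The choice of set bounds this spread, and a change of 1.55-fold was needed to pass over all genes. Its relative Fabp5, also a carrier and more abundant per length, was at 1241 in Cbx2-/- cells and 1051 in wild-type cells in the authors' deposited table (DESeq2 adjusted p 0.0717).

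Of the perilipin genes Plin2 rose, and Plin1 and Plin4 did not pass the threshold. Plin2 (chromosome 4, 86626910 to 86670217 in mm10), the droplet coat of most cell types, was at 4980 in Cbx2-/- cells against 3561 in wild-type cells in the authors' deposited table (log2 fold change 0.48, SE 0.050, 95% interval 0.39 to 0.58, DESeq2 adjusted p 4.80e-20). This rise of 1.40-fold was small but precisely measured, and 48 of the 3794 genes with a mean between 1000 and 10000 had a higher log2 fold change. The call rests on a small spread between libraries: with 10% spread added, the adjusted p of the normal test was 0.0588 for Plin2, against 5.46e-16 for Lpl. Plin1, the coat that guards triglyceride in fat cells, was low, with 16 and 12 recovered reads in Cbx2-/- libraries and 29 and 19 in wild-type libraries. Its deposited log2 fold change was -0.65 (SE 0.47, DESeq2 adjusted p 0.688), and only a change of 2.55-fold would have passed at that depth. Plin4, a coat of fat cell droplets, had 71 and 57 recovered reads (1 of 2 matching sets) in Cbx2-/- libraries and 89 and 71 in wild-type libraries, with a deposited log2 fold change of -0.37 (SE 0.29, DESeq2 adjusted p 0.751). Plin4 overlaps Hdgfl2 on the chromosome, which had values of 1272 in Cbx2-/- cells and 1284 in wild-type cells in the authors' deposited table. Plin2 overlaps Gm12551, a transcribed pseudogene with no value in that table.

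Adipoq, which encodes the fat cell hormone adiponectin, had 67 and 66 recovered reads in Cbx2-/- libraries and 67 and 56 in wild-type libraries. The groups overlapped, and the deposited log2 fold change was 0.024 (SE 0.30, DESeq2 adjusted p 0.997), with a 95% interval of the change from -32.7% to 53.7%. Only Plin1 and Adipoq had a single matching set of reads. The Cbx2-/- libraries of Plin1 lay below its wild-type libraries, and among the 6126 genes with a mean under 50, where Plin1 lies, this was so in 16.3%, while the groups did not overlap in either direction in 38.4%.

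**Figure D3:**
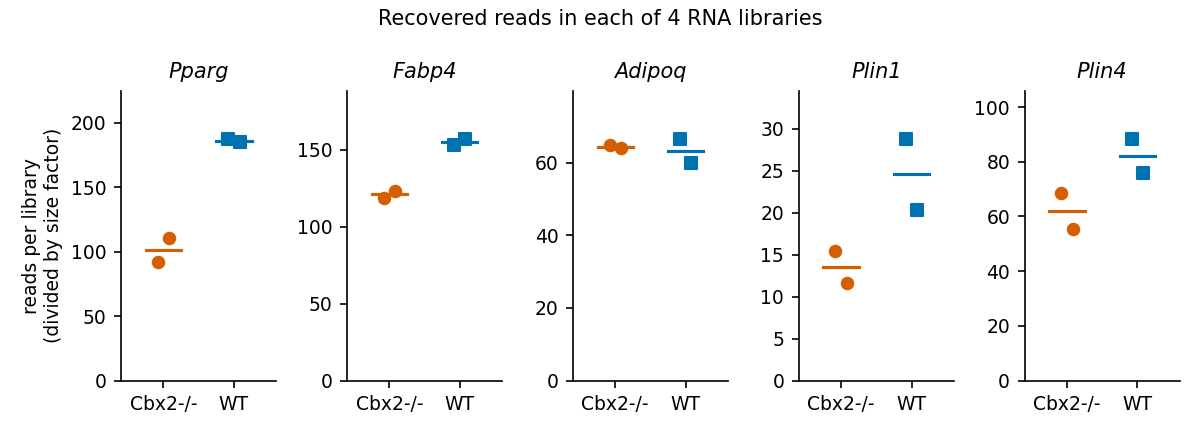
Recovered reads divided by the size factor of the library, for Pparg, Fabp4, Adipoq, Plin1 and Plin4, with a point for each of 2 libraries per genotype and a line at their mean. The Cbx2-/- points lie below the wild-type points for all but Adipoq, which the choice among matching sets fixed for Pparg and could favour for Fabp4 and Plin4. The order of libraries within a genotype is not known.

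Per kilobase of transcript the set covered more than 2 orders of magnitude in both genotypes. Plin2 was at 2639 normalised reads per kb in Cbx2-/- cells and 1887 in wild-type cells, followed by Cebpb at 1219 and 1233. In wild-type cells Lpl came next at 520 per kb, above Cebpd at 305 and Cebpa at 280. In Cbx2-/- cells Lpl, at 188 per kb, was below Cebpa at 293 and Cebpd at 268 and level with Fabp4 at 189. Pparg, at 54.5 per kb in Cbx2-/- cells against 97.7 in wild-type cells, came close to Adipoq at 52.2 in Cbx2-/- cells and 51.3 in wild-type cells. Plin4 (10.9 and 14.1 per kb) and Plin1 (7.90 and 12.4 per kb) were the lowest of the set in Cbx2-/- and wild-type cells alike.

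**Figure D4:**
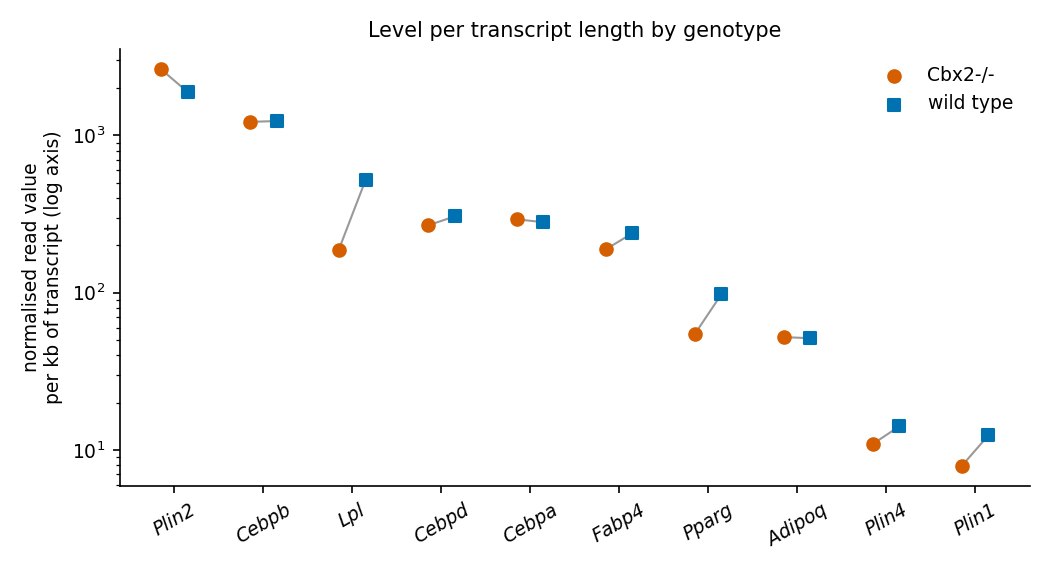
Deposited value per kb of transcript on a log axis for each gene, Cbx2-/- (circles) beside wild type (squares), ordered by the wild-type level. Plin2 is at the top and Plin1 at the bottom in both genotypes, and the steepest line is that of Lpl.

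Other genes of fat cell formation and lipid storage, with surface markers of fibroblasts and preadipocytes, were counted in lists, which were chosen with earlier results of these data known. In all, 27 of 130 genes in the table were called (20.8%), 9 higher and 18 lower, with a median log2 fold change of -0.020, beside 7.78% of all genes and 11.8% of the more abundant 8721 genes, to which 89 of the 130 belong. The inhibitors of adipogenesis were the list with the most calls, 5 higher and 7 lower of 22, at a median of -0.044. Those 12 and the 6 calls among the 14 surface markers made up most of the 27. Dlk1, a surface protein that marks preadipocytes and blocks their differentiation, rose to 2790 in Cbx2-/- cells, against 1685 in wild-type cells, in the authors' deposited table (log2 fold change 0.73, SE 0.064, DESeq2 adjusted p 9.33e-28). In the authors' deposited table Id3, an inhibitor of helix-loop-helix factors, fell with a log2 fold change of -0.32, and Sox9, a cartilage and progenitor factor, with one of -0.80. The Wnt ligand genes Wnt6 and Wnt10a, singled out after their values were seen, were low in both genotypes. Wnt6 had 37 and 35 recovered reads in Cbx2-/- libraries against 7 and 5 in wild-type libraries, and its rise passed (DESeq2 adjusted p 0.00256). Wnt10a had 27 and 22 in Cbx2-/- libraries against 2 and 5 in wild-type libraries, and it passed too (DESeq2 adjusted p 0.0158). Both gene products are known to oppose fat cell formation, while other inhibitors in the list moved down, so the list had no single direction.

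Among 21 other adipogenic factors and coactivators 1 rose and 2 fell (14.3%), at a median log2 fold change of -0.075. The share called was 7.78% over all genes and 11.8% over the more abundant ones. Ebf1, an early B cell factor that also acts upstream of Pparg, was at 1042 in Cbx2-/- cells against 1525 in wild-type cells in the authors' deposited table (log2 fold change -0.55, SE 0.080, DESeq2 adjusted p 3.91e-10). In the authors' deposited table Prdm16, a regulator of brown fat, fell with a log2 fold change of -0.96, and Klf5, a Krüppel-like factor induced early in adipogenesis, rose with one of 0.74. None of the 6 PPAR, RXR and LXR receptor genes besides Pparg passed, against 2 at an unadjusted DESeq2 p under 0.05, which were Ppard and Nr1h3. Nr1h3, which encodes liver X receptor α and was picked out with its values known, showed 19 and 11 recovered reads in Cbx2-/- libraries and 34 and 34 in wild-type libraries (DESeq2 adjusted p 0.193).

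Downstream of fatty acid uptake few genes moved. None of 15 genes of triglyceride synthesis passed the DESeq2 threshold, against 3 at an unadjusted p under 0.05, with a median log2 fold change of 0.059. Of 20 other genes of the droplet coat and lipolysis 2 rose (10%, near the share over all genes), namely Abhd5, the activator of adipose triglyceride lipase (log2 fold change 0.27), and Mgll, monoacylglycerol lipase (0.44), in the authors' deposited table. Pnpla2 and Lipe, which encode the lipases that precede Mgll, did not pass. Of 13 other adipocyte products and markers 1 fell (7.69%, near that share too), Rbp4, the retinol carrier, with 31 and 24 recovered reads in Cbx2-/- libraries against 76 and 56 in wild-type libraries (DESeq2 adjusted p 0.0149). Cidec, which encodes a fat cell droplet protein and is in the list of droplet coats, had 5 and 2 recovered reads in Cbx2-/- libraries and 4 and 1 in wild-type libraries, and Cidea had 1 and 0 in Cbx2-/- libraries and 0 and 1 in wild-type libraries. Cidec and Cidea too were picked out with their values known. The surface markers of fibroblasts and preadipocytes had 1 rise and 5 falls among 14 (42.9% called, beside 7.78% of all genes). Thy1 rose (log2 fold change 1.27), and Ly6a, the Sca1 antigen of mesenchymal progenitors, fell to 458 in Cbx2-/- cells, against 1164 in wild-type cells, in the authors' deposited table (log2 fold change -1.35, DESeq2 adjusted p 1.14e-35). Pdgfrb, a receptor of perivascular and fibroblast cells, fell with a log2 fold change of -0.44 there.

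**Figure D5:**
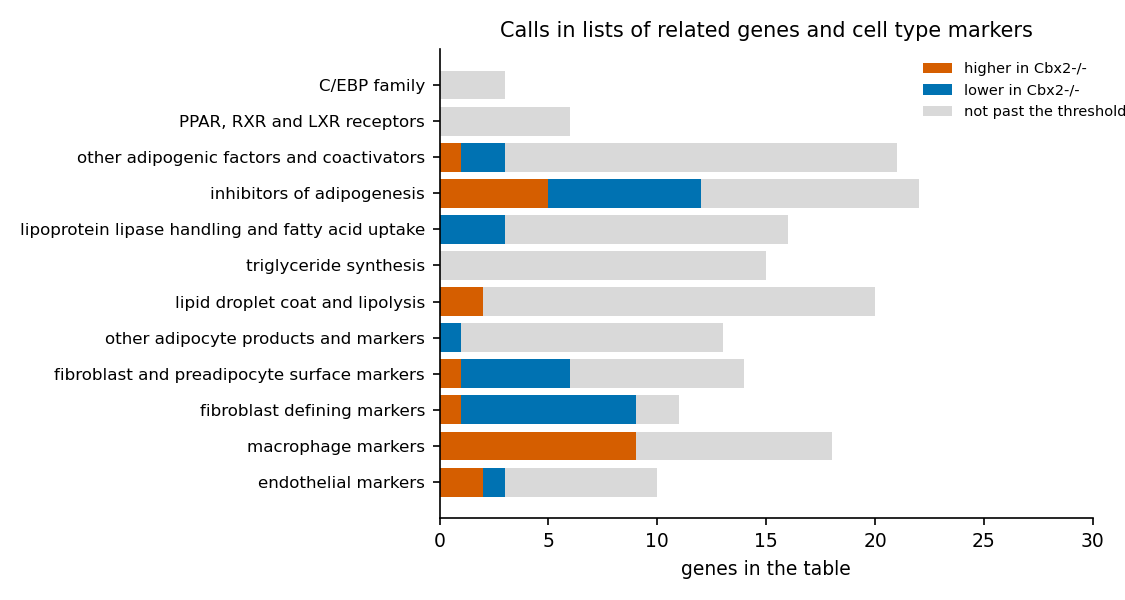
Number of genes in each list that were higher in Cbx2-/- cells, lower in Cbx2-/- cells or not past an adjusted p of 0.05. The lists of triglyceride synthesis, C/EBP family and PPAR, RXR and LXR receptors have no call, and the inhibitors of adipogenesis have 12.

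Markers of other cells moved between the same samples. The share called was 50% of macrophage, 30% of endothelial and 81.8% of defining fibroblast markers. Over all genes it was 7.78% (3.48% higher, 4.3% lower), at a median log2 fold change of 0.0036, and 11.8% among the more abundant ones. Of 18 macrophage markers 9 rose and none fell, at a median log2 fold change of 1.34. Their summed value was 1944 in Cbx2-/- cells and 697 in wild-type cells, or 997 and 549 without Lyz2, the lysozyme gene, with single genes from 1.76 to 947 in Cbx2-/- cells and from 1.72 to 245 in wild-type cells in the authors' deposited table. Cd36, a scavenger receptor of macrophages and fat cells and a PPARγ target, had 49 and 48 recovered reads in Cbx2-/- libraries and 33 and 34 in wild-type libraries and did not pass (DESeq2 adjusted p 0.870). The 9 called macrophage markers thus moved in the direction of Plin2 and opposite to Lpl and Pparg, and their part in these results was not tested. Of the 9 that did not pass, Csf1r was level, at 257 in Cbx2-/- cells and 245 in wild-type cells in the authors' deposited table. C1qb and Aif1 had negative log2 fold changes at few reads, and the rest had positive ones. The markers with the smallest adjusted p in the authors' deposited table were Lyz2 (log2 fold change 2.68), Ctss, a lysosomal protease gene (2.39), and Cd68, a lysosomal membrane protein gene (1.47). Of 10 endothelial markers 2 rose and 1 fell: the log2 fold changes in the authors' deposited table were 3.03 for Esam and 2.40 for Cdh5, both junction proteins, and -0.55 for Flt1, a VEGF receptor. Their summed value was 1123 in Cbx2-/- cells and 798 in wild-type cells. The higher sum came from Esam (290 in Cbx2-/- cells against 35.6 in wild-type cells) and Cdh5 (324 against 61.6). Flt1 was at 369 in Cbx2-/- cells against 540 in wild-type cells. Kdr and Egfl7 were also lower without passing, and the remaining markers were low in both genotypes. Pecam1 had 1 and 3 recovered reads in Cbx2-/- libraries and 2 and 2 in wild-type libraries. The defining fibroblast markers had 1 rise and 8 falls among 11, at a median log2 fold change of -0.38, including Dcn (-1.06) in the authors' deposited table, so that the falls of Lpl and Pparg stood beside falls in general fibroblast genes. In bulk RNA of this kind, fewer cells of a type and less RNA per cell cannot be told apart.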

How the data were processed

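RNA was measured in 2 Cbx2-/- and 2 wild-type libraries, grouped by the titles in the labels. The authors deposited a table with 1 normalised read signal per genotype, a log2 fold change, a p-value and an adjusted p-value per gene. HISAT2, Bowtie2, RSEM, DESeq2 and mm10 are named in the submitters' processing notes, while versions, roles and filters are not stated there. The deposited log2 fold change equals the log2 ratio of the deposited values to within 9.13e-09. The deposited adjusted p-values match those from a Benjamini-Hochberg adjustment of the 17441 p-values to within 1.33e-06.

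SEs were computed as the deposited log2 fold change divided by the normal deviate of the deposited p-value (Python 3.11.15, SciPy 1.17.1), and 95% intervals assume normality. The members and lists were chosen with earlier results of these data known. By rule the text names the members, Cbx2 and, in each list, up to 3 called genes with the smallest adjusted p, or all where 5 or fewer were called. Other genes it names (Angptl4, Fabp5, Cd36, Pnpla2, Lipe, Csf1r, C1qb, Aif1, Kdr, Egfl7, Pecam1, neighbours) fall outside the rule and were chosen after their values were seen. A gene that the rule names is not reported here. Coordinates, promoters and 26 symbols that had been turned into dates come from RefSeq (GRCm38.p6), which matched 17396 gene identifiers.

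Averaged over the genotypes, the deposited values are made of whole reads, and 1 read adds the same amount for any gene of a library. These amounts were read from genes with 1 read and refitted, giving size factors of 1.03 and 1.03 in Cbx2-/- and 1.01 and 0.935 in wild type. Means were matched within 6e-09, or 6e-08 for values of 100 or more. Plin1 and Adipoq had 1 matching set of reads, Plin4 had 2, Fabp4 14 and Pparg 16. The last 3 were settled by limits set after seeing the data, libraries of a genotype within 1.5-fold and a log2 ratio within 0.1 of the deposited one, which left 1 set each. Of 100 values shifted at random, 100% matched some set of reads for Pparg and for Fabp4, 23% for Plin4, 16% for Adipoq and 0% for Plin1, so a match alone is no evidence for Pparg and Fabp4. Within the limits these shares were 2% for Pparg and 0% for the others. For Plin1 this 0% says nothing about the limits, since none of its shifted values matched any set. The single Plin1 set itself did not meet the limits, with a log2 ratio of -0.86 against a deposited -0.65. Of 259 genes with a mean of 40 to 50, 1 set of reads and an absolute deposited log2 fold change under 1, 80.3% met both limits. The means of Plin4 (72.1), Fabp4 (138) and Pparg (144) are higher, so this share does not cover them. Recovery and SEs were tested on simulated data, with an outcome that is not given here, so this lends them no support. Alternatives were a 2-fold limit, a filter on low values, 10% or 20% spread added between libraries, recentring, and Benjamini-Yekutieli adjustment.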

Additional observations from a re-analysis of the deposited data

How the results depend on the processing

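Lpl stayed past the threshold in all settings tried. Pparg and Plin2 lost their calls with a 2-fold limit and with 10% or 20% added spread between libraries, and kept them after recentring and with Benjamini-Yekutieli adjustment. With genes of a mean below the median left out, Plin2 and Lpl kept theirs, and Pparg, whose mean is lower, was not tested. The 10 genes thus had 1 call with a 2-fold limit and 1 with either added spread, in place of 3. The 27 calls in the lists became 6 with the 2-fold limit, 9 with 10% and 2 with 20% added spread. Over all genes the 1357 calls became 294, 425 and 125 in the same settings and 869 with Benjamini-Yekutieli adjustment. Each of these settings is a stricter rule by construction. Recentring set the median of the more abundant genes, -0.011, to 0. The ratio of recovered reads gave log2 values of -0.88 for Pparg, -0.36 for Fabp4, -0.40 for Plin4, 0.027 for Adipoq and -0.83 for Plin1 with a pseudocount of 0.5. Leaving out 1 library at a time gave -1.06 to -0.57 for Plin1. It gave -0.57 without one Cbx2-/- library and -0.26 without the other for Plin4, and -1.02 to -0.75 for Pparg and -0.38 to -0.33 for Fabp4, ranges that the choice of reads bounds and that show no stability. The sign of Adipoq turned at -0.046 without a wild-type library. No paired analysis was possible because the table holds 1 value per genotype and recovered reads carry no replicate number. Depth limits Plin1, Plin4 and Adipoq most.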

Other observations

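Genes next to the changed members on their chromosomes are given here for Lpl, Pparg and Plin2, and those named did not pass the threshold. Ints10, an Integrator subunit gene 51.1 kb from Lpl, had values of 527 in Cbx2-/- cells and 561 in wild-type cells in the authors' deposited table (log2 fold change -0.091, DESeq2 adjusted p 0.931). Syn2, 78.3 kb from Pparg, was barely detected, at 3.76 in Cbx2-/- cells and 4.28 in wild-type cells in the authors' deposited table. Haus6, 14.8 kb from Plin2 and a subunit of the augmin complex, was at 400 in Cbx2-/- cells and 496 in wild-type cells in the authors' deposited table (log2 fold change -0.31, DESeq2 adjusted p 0.155), and Dennd4c on the other side had a log2 fold change of -0.036. Of the 20 nearest neighbours of the 10 genes, 1 was called, near the share of 7.78% over all genes. It was Pkp2, which encodes a desmosomal plakophilin and lies 323.8 kb from Cebpd (log2 fold change -0.26, DESeq2 adjusted p 0.0306). Plin4 and Plin5, adjacent perilipin genes 1.65 kb apart, differed in level, with Plin5 at 1.01 in Cbx2-/- cells and 1.02 in wild-type cells in the authors' deposited table.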
